A study of Mus musculus with 6 samples.

Results

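Ifi44, Rsad2, Bst2, Xaf1, Isg15, Ifit1, Ifit3, Parp14, Oasl2 and Usp18 are effector genes of the type I interferon response. These 10 genes were named as a set, matched by symbol to the Ensembl mouse gene identifiers of the count table, and all 10 of them had a row among its 43629 genes. The study asked what AKT and WEE1 inhibitors, or an aldehyde dehydrogenase inhibitor, do to mouse melanoma when given with an antibody against PD-1. Its samples were B16F10 tumours, a transplantable melanoma line injected under the skin of 8-week-old female C57BL/6J mice, which were taken when control tumours reached 2000 mm3. Tumours of each treatment were pooled before RNA extraction, so each treatment is 1 library. RNA was read from the 3′ ends of polyadenylated transcripts (QuantSeq 3′ mRNA-Seq).

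DMSO with control IgG was given to the control pool, and DMSO with the PD-1 antibody to the anti-PD-1 pool. PD-1 is a receptor that restrains T cells. In the AZD+MK pool the mice had AZD5363, which inhibits AKT, MK1775, which inhibits WEE1, and control IgG. In the KS100 pool they had KS100, the aldehyde dehydrogenase inhibitor, and control IgG. The pools called AZD+MK+anti-PD-1 and KS100+anti-PD-1 had the same inhibitors with anti-PD-1 in place of control IgG. All 6 pools share the cell line, the host strain and the time of collection. In bulk tumour RNA, fewer cells of a type and less RNA per cell cannot be told apart.

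Type I interferons are secreted when cells sense viral or misplaced nucleic acid. They bind the receptor made of Ifnar1 and Ifnar2, whose kinases Jak1 and Tyk2 act on latent transcription factors such as Stat2. With Irf9 these form a complex that binds the interferon-stimulated response element in the promoters of effector genes. Interferon gamma acts through a different element, the gamma-activated site, and many effector genes respond to both kinds of interferon. In tumours these genes can be expressed by the malignant cells and by the immune and stromal cells among them.

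The promoters show the element directly. RefSeq's promoter table (GRCm38.p6) held 8 of the 10 genes, and Parp14 and Usp18 were not matched in it. Each window was the 250 bases before the transcription start, searched on both strands for TTTCNNTTTC, the core of the interferon-stimulated response element, and for TTCNNNGAA, the gamma-activated site. The 3 windows below are printed because their genes are the only members with at least 20 counts in the control pool, so the best measured comparisons rest on them. They run 5′ to 3′ on the gene's own strand, and capitals mark the matches to the interferon-stimulated response element core.
Rsad2, chr12:26456453-26456702, minus strand: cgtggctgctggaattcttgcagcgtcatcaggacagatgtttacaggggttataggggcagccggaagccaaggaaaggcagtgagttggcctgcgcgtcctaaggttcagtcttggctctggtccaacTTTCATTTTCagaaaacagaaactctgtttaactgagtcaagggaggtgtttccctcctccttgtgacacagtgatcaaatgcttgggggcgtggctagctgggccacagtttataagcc
Isg15, chr4:156200819-156201068, minus strand: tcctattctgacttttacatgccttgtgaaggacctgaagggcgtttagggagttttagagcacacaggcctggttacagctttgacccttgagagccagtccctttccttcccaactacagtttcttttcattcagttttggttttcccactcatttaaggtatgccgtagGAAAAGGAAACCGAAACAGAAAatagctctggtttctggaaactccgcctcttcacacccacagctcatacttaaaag
Bst2, chr8:71537473-71537722, minus strand: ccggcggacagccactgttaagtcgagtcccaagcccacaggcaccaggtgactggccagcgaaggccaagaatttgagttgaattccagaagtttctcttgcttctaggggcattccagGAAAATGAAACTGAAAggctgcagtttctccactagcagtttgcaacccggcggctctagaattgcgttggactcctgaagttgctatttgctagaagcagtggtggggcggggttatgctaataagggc
Counting back from -1 at the base just before the start, the Rsad2 match begins at -120. Isg15 has 3 overlapping matches that begin at -78, -72 and -66, all on the opposite strand. Bst2 has 2 overlapping matches that begin at -130 and -124, and a gamma-activated site at -136 that overlaps the first of them.

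Ifit1 (matches at -104 and -85) and Ifit3 (at -156 and -122) each had 2 matches that do not overlap, so 5 of the 8 genes held the core. It was found in 2.98% of the 32851 windows in the table. The windows of Ifi44, Xaf1 and Oasl2 held no exact match, which says only that these letters are not in this window. Bst2 was the only gene of the 8 with a gamma-activated site, which 7.02% of windows held. Of a list of 67 other interferon effector genes, 55 had a window and 22 of these held the response element core.

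The pools differed widely in depth, and this sets what can be said of each gene. The control library totalled 1591673 counts, anti-PD-1 1002088 and AZD+MK+anti-PD-1 338474, whereas AZD+MK had only 26639, KS100 44748 and KS100+anti-PD-1 25521. Levels are given as CPM, counts scaled to a total of 1000000 per pool. A count of 0, which allows up to 3 counts, leaves room for 1.88 CPM in control but 112.6 CPM in AZD+MK. Mitochondrial genes took 1.29% to 1.89% of counts in the pools without inhibitor and 13.2% to 19.8% in the inhibitor pools. Ribosomal RNA genes took 27.4% of the AZD+MK+anti-PD-1 counts and at most 5.01% elsewhere. The tissue label was borne out by its markers, since 8 of 8 melanocyte genes had counts in each of the 3 deep pools.

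With 1 library per treatment, ratios between pools have no replicate check and no p-value. They were scaled by TMM factors, and their 95% intervals cover counting error only. To be tested, a gene needed 20 counts in either pool of a comparison. It was called higher or lower if its ratio reached 2 in either direction with an interval wholly beyond 1.5-fold.

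The 10 genes together were high in 1 pool. Their summed counts were 516 in control, 271 in anti-PD-1, 9 in AZD+MK, 622 in AZD+MK+anti-PD-1, 16 in KS100 and 7 in KS100+anti-PD-1. As levels these sums were 324.2, 270.4, 337.9, 1838, 357.6 and 274.3 CPM in the same order. The other 5 pools thus lay between 270.4 and 357.6 CPM, and the interval of the AZD+MK+anti-PD-1 sum, 1696 to 1988 CPM, did not meet that of any of them. All 10 genes had counts in that pool, against 9 in control, 7 in anti-PD-1, 3 in AZD+MK and 6 in each KS100 pool.

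**Figure D1:**
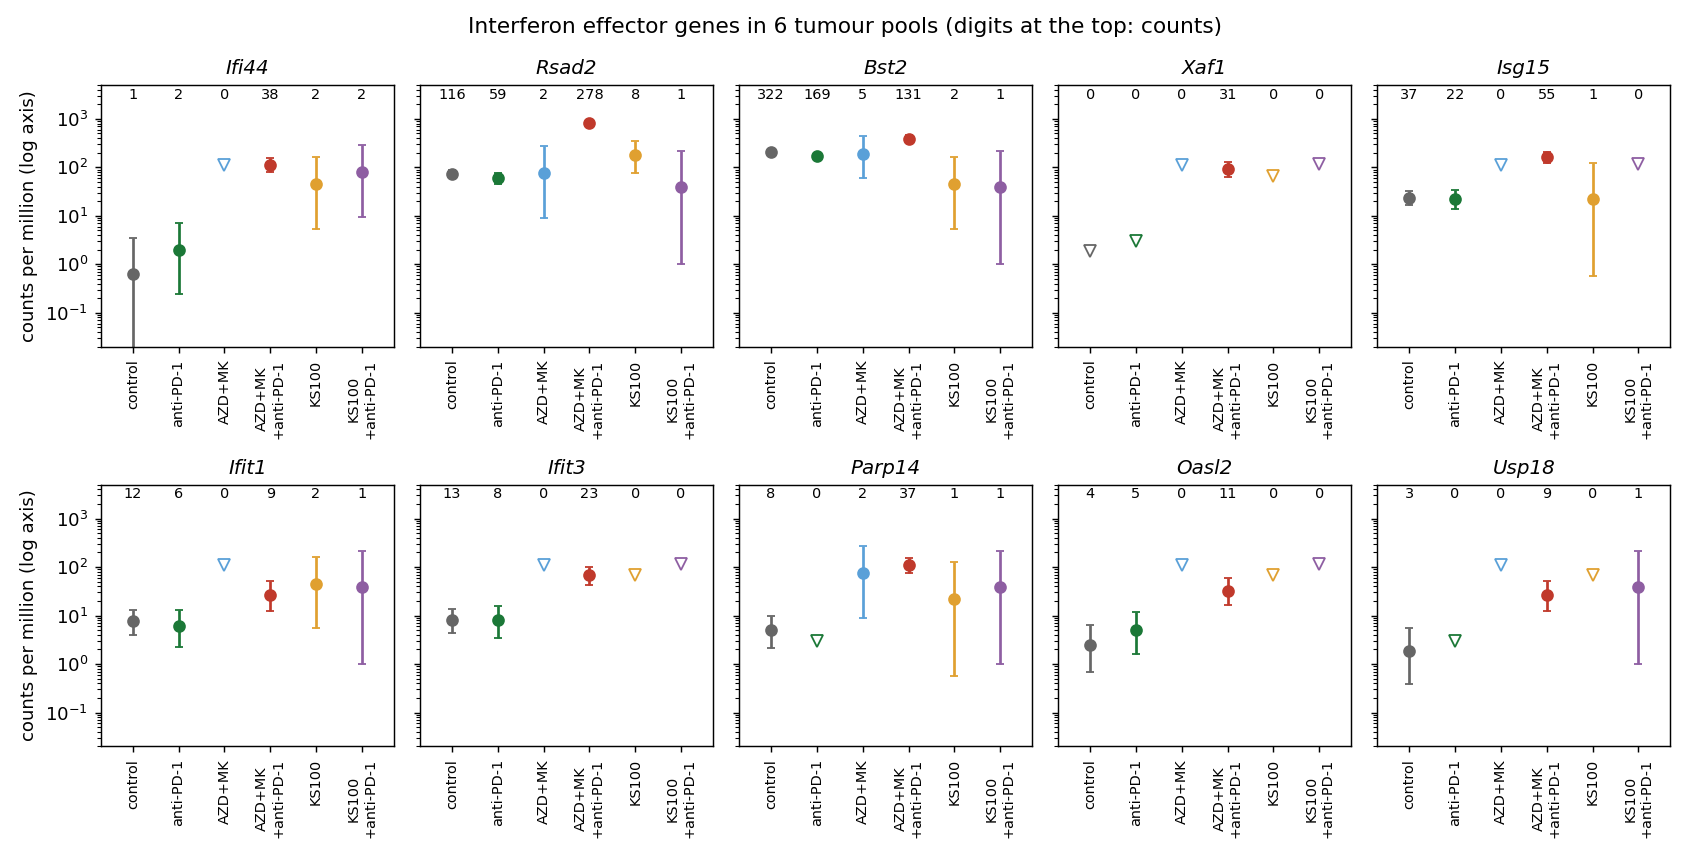
Level of each of the 10 genes in each of the 6 tumour pools, in CPM on a log axis, with bars for the exact 95% Poisson interval (counting error only) and the counts as digits at the top. Open triangles mark pools with 0 counts, drawn at the level of 3 counts. Rsad2, Bst2 and Isg15 are highest in the AZD+MK+anti-PD-1 pool, and most triangles belong to the shallow pools.

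Against control, 7 of the 10 genes could be tested in the AZD+MK+anti-PD-1 pool and all 7 of these were called higher, where 14.9% of all genes tested were higher and 8.02% lower. This count and the median ratio below need care. Ifi44, Xaf1, Ifit3 and Parp14 reached the minimum only through the pool in which they were high, which favours high values of both. Rsad2, Bst2 and Isg15 also reached it in the control pool. The median log2 ratio of the 7 was 4.19, beside -0.00068 for all genes tested, with 0 counts set to 3 in both. The summed ratio was 9.16 (8.14 to 10.3). In the remaining 3 genes, Ifit1, Oasl2 and Usp18, counts were below the minimum and the ratio was above 1 as well.

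Gene positions below are from GENCODE M21 on GRCm38. Isg15 and Usp18 belong to the ISG15 conjugation system. Isg15 (ENSMUSG00000035692, chr4:156199424-156200818, minus strand) encodes a ubiquitin-like protein that is attached to other proteins during the interferon response. It had 37 counts in control, 22 in anti-PD-1, 0 in AZD+MK, 55 in AZD+MK+anti-PD-1, 1 in KS100 and 0 in KS100+anti-PD-1. The AZD+MK+anti-PD-1 level of 162.5 CPM stood above 23.2 CPM in control and 22.0 CPM in anti-PD-1, a ratio of 11.3 (7.31 to 17.6) to control. The shallow pools, with 1 count at most, could not place Isg15 above or below control. Usp18 (ENSMUSG00000030107, chr6:121245906-121270917, plus strand) encodes the protease that removes ISG15 and restrains signalling at the interferon receptor. It had 3 counts in control, 9 in AZD+MK+anti-PD-1, 1 in KS100+anti-PD-1 and 0 elsewhere, and its ratio to control of 22.8 (5.69 to 131) rests on these few counts.

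Rsad2 (ENSMUSG00000020641, chr12:26442746-26456452, minus strand) encodes viperin, an enzyme that makes a chain-terminating nucleotide. Its counts were 116 in control, 59 in anti-PD-1, 2 in AZD+MK, 278 in AZD+MK+anti-PD-1, 8 in KS100 and 1 in KS100+anti-PD-1. It reached 821.3 CPM in AZD+MK+anti-PD-1, from 72.9 CPM in control, a ratio of 18.2 (14.6 to 22.8). No other pool came near this level: KS100 was next with 178.8 CPM, on 8 counts.

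Ifit1 (ENSMUSG00000034459, chr19:34640871-34650009, plus strand) and Ifit3 (ENSMUSG00000074896, chr19:34583531-34588731, plus strand) encode tetratricopeptide-repeat proteins of 1 family, of which IFIT1 binds viral RNA that lacks host-like cap methylation and IFIT3 partners with other IFIT proteins. Ifit1 had 12, 6, 0, 9, 2 and 1 counts in the same order of pools, and its ratio of AZD+MK+anti-PD-1 to control was 5.70 (2.12 to 14.7), below the minimum of counts. Ifit3 had 13, 8, 0, 23, 0 and 0 counts, and its ratio was 13.4 (6.53 to 28.9). The intervals of Ifit1 and Ifit3 overlap, and the difference between their ratios was not tested. Ifit3 has a near-identical neighbour, Ifit3b, which shared 17 of the 401 possible 100-base words (4.24%) in the last 500 bases of its transcript, while no word in the last 500 bases of the other 9 genes occurred in another gene. The value of Ifit3 alone is therefore uncertain. With Ifit3b added, 34 counts stood against 13, which gave a ratio of 19.9 (10.2 to 41.0).

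Oasl2 (ENSMUSG00000029561, chr5:114896936-114912234, plus strand) encodes a protein related to the oligoadenylate synthetases, which activate an antiviral RNase. Its counts were 4, 5, 0, 11, 0 and 0, and its ratio to control in AZD+MK+anti-PD-1 was 20.9 (6.19 to 90.0), below the minimum of counts.

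Bst2 (ENSMUSG00000046718, chr8:71534255-71537456, minus strand) encodes tetherin, a membrane protein that holds budding virus particles at the cell surface. Its ratio to control was the smallest of the 10. Its counts were 322, 169, 5, 131, 2 and 1, which were 202.3 CPM in control, 169 in anti-PD-1, 187.7 in AZD+MK, 387 in AZD+MK+anti-PD-1, 44.7 in KS100 and 39.2 in KS100+anti-PD-1. The ratio of AZD+MK+anti-PD-1 to control was 3.09 (2.50 to 3.80). Scaled by library totals in place of TMM it was 1.91 (1.55 to 2.35), which is not past the rule. Rsad2 at 11.3 and Isg15 at 6.99 remained past it under that scaling.

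Parp14, Xaf1 and Ifi44 complete the set. Parp14 (ENSMUSG00000034422, chr16:35832874-35871544, minus strand) encodes an ADP-ribosyltransferase. It had 8 counts in control, 0 in anti-PD-1, 2 in AZD+MK, 37 in AZD+MK+anti-PD-1 and 1 in each KS100 pool, a ratio of 35.1 (16.1 to 87.3) to control. Xaf1 (ENSMUSG00000040483, chr11:72301629-72313733, plus strand) encodes a protein that binds the apoptosis inhibitor XIAP. It had 31 counts in AZD+MK+anti-PD-1, or 91.6 CPM, and 0 in each of the other 5 pools. Against the 3 counts that a 0 allows in control, this is at least 78.5-fold higher, while in the 3 shallow pools a level of 67.0 to 117.6 CPM would have been compatible with no count. Ifi44 (ENSMUSG00000028037, chr3:151730922-151749960, minus strand) encodes a cytoplasmic protein induced by interferon. It had 1 count in control, 2 in anti-PD-1, 0 in AZD+MK, 38 in AZD+MK+anti-PD-1 and 2 in each KS100 pool, and its ratio of 289 to control carries an interval of 48.8 to 11698. Parp14 shares 110 exon bases with Gm49730 on the same strand, and Usp18 shares 124 with the antisense gene Gm44148, so reads there may not be theirs alone.

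**Figure D2:**
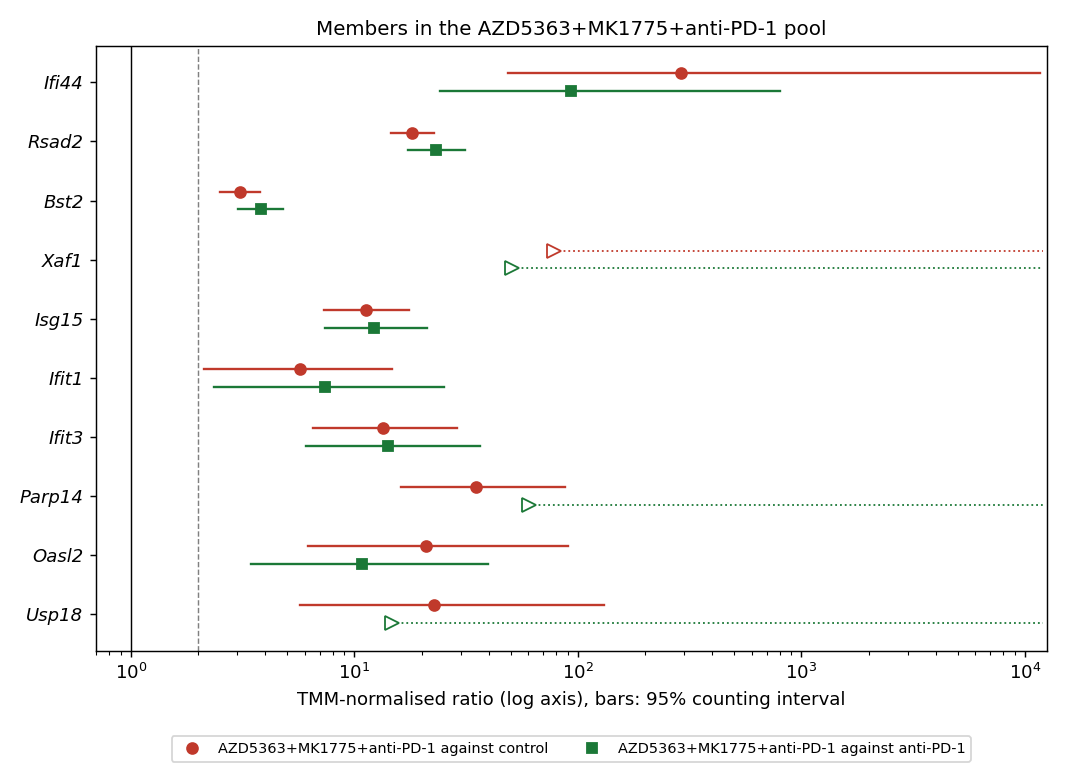
TMM-normalised ratio of the AZD+MK+anti-PD-1 pool to the control pool (red circles) and to the anti-PD-1 pool (green squares) for the 10 genes on a log axis, with 95% counting intervals. Open triangles with dotted lines are lower bounds against 3 counts, the solid line marks a ratio of 1 and the dashed line a ratio of 2. Bst2, at 3.09 and 3.81, has the smallest ratios, and every point lies to the right of the dashed line.

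The make-up of the summed counts changed along with their level. Bst2 held 62.4% (exact binomial interval 58.1% to 66.6%) of the 10 genes' counts in control and 62.4% in anti-PD-1, but 21.1% (17.9% to 24.5%) in AZD+MK+anti-PD-1. Rsad2 held 22.5% (18.9% to 26.3%) in control and 44.7% (40.7% to 48.7%) in AZD+MK+anti-PD-1. These are shares of counts and do not compare the levels of the genes. Without Bst2, the summed ratio to control was 19.2 (16.2 to 22.8).

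Adding the inhibitors to the antibody was read from the same treated pool, so this comparison is not independent of the one with control. Against the anti-PD-1 pool, 7 of 7 genes tested in AZD+MK+anti-PD-1 were called higher, where 14.0% of all genes were. Rsad2 was 23.2-fold higher (17.4 to 31.2), Isg15 12.3-fold (7.38 to 21.2) and Bst2 3.81-fold (3.01 to 4.82). Ifi44, at 93.5 (24.2 to 800), and Ifit3, at 14.1 (6.11 to 36.6), were also past the rule. Xaf1 was at least 50.8-fold and Parp14 at least 60.7-fold higher, both against 0 counts. Ifit1 at 7.38 (2.35 to 25.2), Oasl2 at 10.8 (3.47 to 39.7) and Usp18, at least 14.8-fold higher than its 0 counts allow, were below the minimum. The summed ratio was 11.3 (9.77 to 13.1), and the median log2 ratio of the genes tested was 4.53 beside -0.06 for all genes, with 0 counts set to 3. As with control, Ifi44, Xaf1, Ifit3 and Parp14 reached the minimum only through the pool in which they were high. The count and the median therefore need the same care. Rsad2, Bst2 and Isg15 reached the minimum in anti-PD-1 as well.

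Adding the antibody to the inhibitors could be read for few of the genes, because the AZD+MK pool held 9 counts of them. Against it, 2 of 7 genes tested in AZD+MK+anti-PD-1 were called higher, where 11.1% of all genes were. Rsad2 was 19.0-fold higher (5.21 to 158) and Isg15 at least 2.50-fold. Scaled by library totals, the count was 1 gene, where 76 of all 2793 genes tested were higher. The ratio of Bst2 was 3.58 (1.5 to 11.2) and that of Parp14 was 2.53 (0.652 to 21.6), and neither was past the rule. For the other 3 genes tested, Ifi44, Xaf1 and Ifit3, the AZD+MK pool had 0 counts and the depth could not show a difference of the required size. The summed ratio was 9.44 (4.94 to 20.7). With 0 counts set to 3, as for 4 of the 7, the median log2 ratio of the genes tested was 1.32, beside 0.59 for all genes tested in that comparison. All 7 reached the minimum only through the pool in which they were high, so neither their count nor their median supports a difference.

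Between the antibody combinations, 2 of 7 genes tested were called higher in AZD+MK+anti-PD-1 than in KS100+anti-PD-1, where 7.49% of all genes were. They were Rsad2, 23.9-fold higher (4.25 to 946), and Bst2, 11.2-fold (1.98 to 447), each against 1 count. Parp14 at 3.18 (0.536 to 129) and Ifi44 at 1.63 (0.421 to 14.0) were not past the rule. Ifit1 and Usp18, below the minimum, were each at 0.772 (0.107 to 33.9). The summed ratio was 7.63 (3.68 to 19.0), and the median log2 ratio was 0.71 beside 0.50 for all genes tested, with 0 counts set to 3. Here too all 7 reached the minimum only through AZD+MK+anti-PD-1, so their count and median support nothing.

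**Figure D3:**
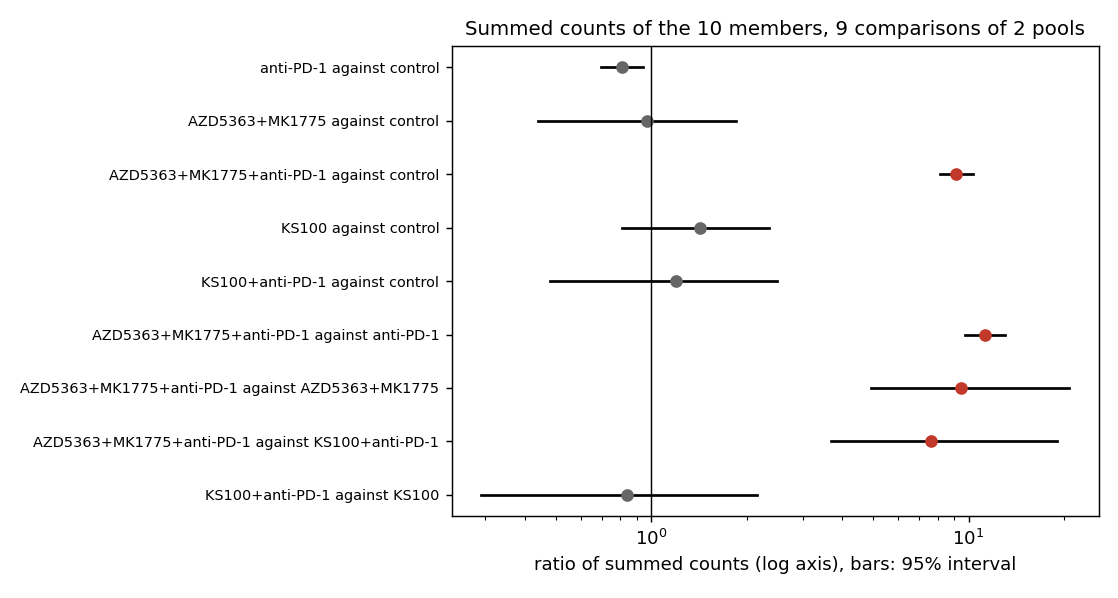
Ratio of the summed counts of the 10 genes in 9 comparisons of tumour pools, on a log axis with 95% counting intervals. Red points are the comparisons with AZD+MK+anti-PD-1 as the first pool, whose ratios run from 7.63 to 11.3, and grey points are the others, which run from 0.811 to 1.43.

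No gene of the 10 was called against control in the other 4 treated pools, which share that control. In anti-PD-1 against control, 0 of 3 genes tested were past the rule, where 4.83% of all genes were, and the best measured ratios lay just under 1. Rsad2 was at 0.786 (0.564 to 1.08), Bst2 at 0.811 (0.669 to 0.979) and Isg15 at 0.918 (0.516 to 1.60). The summed ratio was 0.811 (0.698 to 0.941). Both pools are deep, so a 2-fold rise of the sum lay outside its interval.

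In AZD+MK against control, 0 of 3 genes tested were past the rule, where 2.93% of all genes were. Rsad2 was at 0.959 (0.115 to 3.54) on 2 counts, Bst2 at 0.863 (0.278 to 2.04) on 5, and Isg15, with 0 counts, could have been up to 5.83-fold higher. The interval of the summed ratio, 0.97 (0.441 to 1.86), did not reach the 9.16 of AZD+MK+anti-PD-1, but single genes are not resolved at this depth. Parp14, below the minimum, had a ratio of 13.9 (1.44 to 69.6) on 2 counts against 8.

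In KS100 against control, 0 of 3 genes tested were past the rule, where 6.36% of all genes were. The best measured pair lay on opposite sides of control. Rsad2 was at 3.18 (1.34 to 6.48) on 8 counts and Bst2 at 0.287 (0.0346 to 1.04) on 2 counts. The summed ratio was 1.43 (0.812 to 2.35), and without Bst2, left out after its value was seen, it was 3.33 (1.79 to 5.72). Below the minimum, Ifi44 was at 92.3 (4.80 to 5445) and Ifit1 at 7.69 (0.836 to 34.5), each on 2 counts in KS100. Parp14 was at 5.77 (0.13 to 43.0) on 1 count, while Ifit3, Oasl2 and Usp18 had 0 counts there. In KS100+anti-PD-1 against control, 0 of 3 genes tested were past the rule, where 7.45% of all genes were, with Bst2 at 0.275 (0.00694 to 1.54), Rsad2 at 0.763 (0.0192 to 4.34) and a summed ratio of 1.20 (0.48 to 2.49). Below the minimum, Ifi44 was there at 177 (9.22 to 10445) on 2 counts. Usp18 at 29.5 (0.562 to 367), Parp14 at 11.1 (0.249 to 82.5) and Ifit1 at 7.38 (0.173 to 49.9) had 1 count each, and Ifit3 and Oasl2 had 0. Between the KS100 pools no gene of the 10 reached 20 counts, and the summed ratio was 0.839 (0.292 to 2.16). The KS100 counts carry a further limit. Protein-coding genes with no count in either pool without inhibitor (8744 genes) took 4.47% of counts in KS100 and 9.15% in KS100+anti-PD-1, beside 0.36% in AZD+MK+anti-PD-1. Their part in the low counts of Ifi44, Ifit1 and Parp14 there was not tested.

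A fit over all 6 pools with inhibitor arm and antibody as additive terms leaves 2 residual degrees of freedom and puts any interaction of the treatments into its residual. It kept 4912 genes, among them Ifi44, Rsad2, Bst2 and Parp14, and p-values are from edgeR's quasi-likelihood test with Benjamini-Hochberg adjustment over these genes. The AZD+MK effect was called higher for 2 of the 4, Ifi44 and Parp14, where 1.28% of all genes were. Both passed the filter on level only through inhibitor pools. For Parp14 these were AZD+MK (75.1 CPM, on 2 counts) and AZD+MK+anti-PD-1 (109.3 CPM). For Ifi44 they were AZD+MK+anti-PD-1 (112.3 CPM) and KS100+anti-PD-1 (78.4 CPM, on 2 counts), while AZD+MK had 0 counts. The number of genes called thus supports no difference. Ifi44 rose by 5.85 on the log2 scale (SE 1.32, adjusted p = 0.00372) and Parp14 by 5.62 (SE 1.21, adjusted p = 0.00181). Rsad2, at 3.20 (SE 0.96, adjusted p = 0.0575), and Bst2, at 1.05 (SE 0.86, adjusted p = 0.83), did not pass. These calls changed with the pools used. Without the control pool, or without the anti-PD-1 pool, the filter kept only 2 of the 10 genes. Ifi44 and Parp14 were not among them, so their calls were not tested again there. Without the AZD+MK pool 9 genes were kept, with a median AZD+MK effect of 3.63 on the log2 scale, beside -0.0059 for all genes kept. Without the KS100+anti-PD-1 pool 9 were kept, with a median of 2.77 beside -0.21. The filter reads the same counts, so these medians support no difference. Without the AZD+MK+anti-PD-1 pool none of the 10 genes was kept.

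The antibody's effect in this fit was called for 0 of the 4 genes, where 0.143% of all genes were called, and 0 of the 4 had an unadjusted p under 0.05. The KS100 effect was called higher for 1 of the 4, where 7.21% of all genes were. This was Ifi44, at 5.89 (SE 1.67, adjusted p = 0.00846), which rests on 2 counts in each KS100 pool. Without the control or the anti-PD-1 pool Ifi44 was not kept, so its call was not tested again. With the AZD+MK, KS100 or KS100+anti-PD-1 pool left out it was kept and was not called. The difference between the inhibitor arms was called for 0 of the 4, where 1.65% of all genes were. Bst2 had the smallest p of the 4 there, with a log2 difference of 2.73 (SE 1.15, edgeR adjusted p = 0.365) of AZD+MK over KS100, the only one of the 4 with an unadjusted p under 0.05 (0.0179).

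The rest of the pathway was measured in lists of its ligands, receptors, signalling proteins, nucleic acid sensors and other effectors. The 20 interferon ligand genes, Ifnb1, the Ifna family and Ifng among them, had 1 count in all, of Ifng in the control pool. In AZD+MK+anti-PD-1 they had 0 counts, which allows up to 8.86 CPM for each. Of the 4 receptor genes, 3 were tested against control and 0 were past the rule, with a summed ratio of 1.90 (1.35 to 2.63). Ifnar1 had 7 counts in control and 6 in AZD+MK+anti-PD-1, Ifnar2 46 and 13, Ifngr1 110 and 24, and Ifngr2 25 and 4.

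Signalling genes were read singly in AZD+MK+anti-PD-1 against control. Irf9 had 14, 18, 0, 28, 0 and 0 counts in the order of pools used above, a ratio of 15.2 (7.73 to 31.2), past the rule. Irf1, a transcription factor induced by interferons, had 144, 128, 0, 192, 0 and 0 counts, a ratio of 10.1 (8.12 to 12.7), also past the rule. Stat2, with 4, 6, 1, 17, 0 and 1 counts, was below the minimum. The kinases Jak1, at 1.66, and Jak2, at 1.04, were not past the rule. Tyk2, Irf3, Irf7, Socs1 and Socs3 had 3 counts or fewer in that pool.

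Of 12 nucleic acid sensor genes, 6 were tested and 4 were called higher, where 14.9% of all genes tested were. They were Ddx58, which encodes the RNA sensor RIG-I, at 27.0, Tlr3, an endosomal RNA receptor, at 10.9, Eif2ak2, which encodes the kinase PKR, at 7.60, and Tmem173, which encodes STING, at 2.87, and they are named after their values were seen. Of the 67 other effector genes, 33 were tested, 24 were called higher and 2 lower, where 14.9% and 8.02% of all genes tested were. The median log2 ratio of these 33 was 2.27. The summed ratio of this list was 4.71 (4.40 to 5.03), beside 9.16 for the 10 genes. Among these lists the highest counts in AZD+MK+anti-PD-1 were 176 for Gbp7, at 31.8-fold, 96 for Herc6, at 14.0, 92 for Ifi47, at 14.0, 80 for Ifi203, at 28.9, and 73 for Mndal, at 69.3. Trim30a followed with 52, at 14.1. Ifi27, at 0.305, and Ifitm2, at 0.207, were the lower pair. Ifitm3, with 54 counts and a ratio of 1.67, was not past the rule. Against anti-PD-1, 21 of 32 other effectors tested were higher and 1 lower, and 4 of 6 sensors tested were higher, where 14.0% of all genes were. In the control pool, 26 of the 33 effectors and 5 of the 6 sensors tested reached the minimum. In anti-PD-1, 19 of the 32 effectors and 3 of the 6 sensors did. The rest were tested only through AZD+MK+anti-PD-1, the pool in which they were high.

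**Figure D4:**
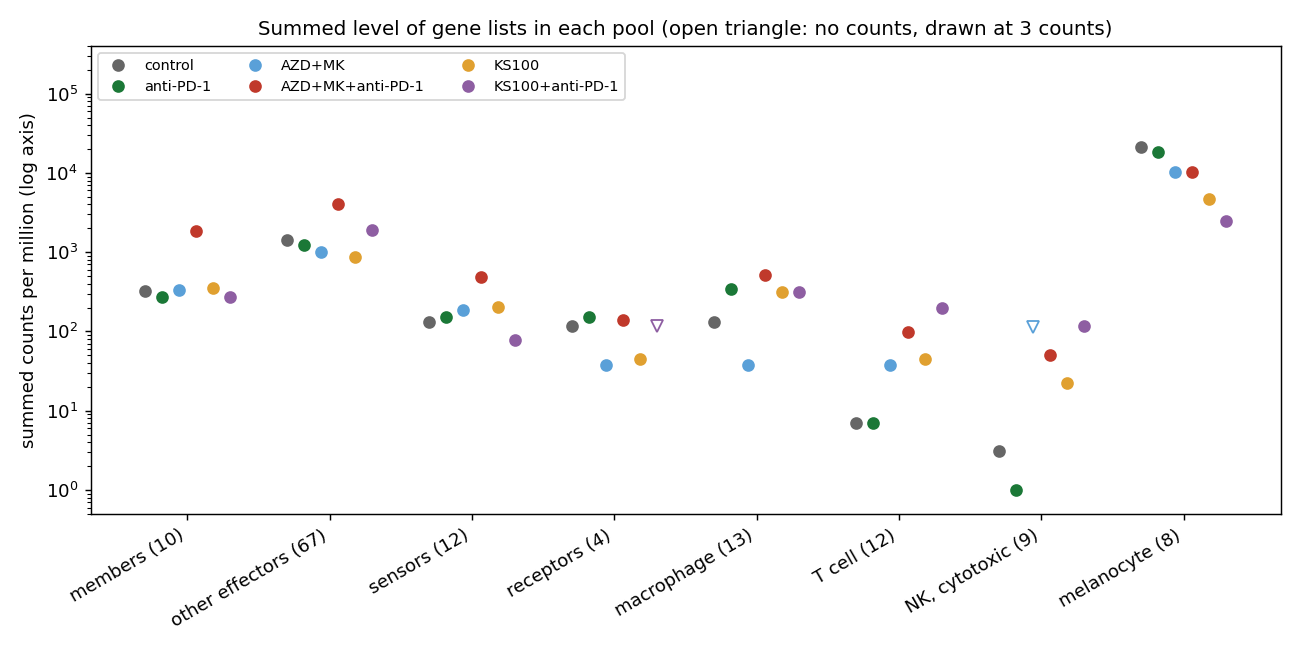
Summed level of gene lists in each of the 6 pools, in CPM on a log axis, with the number of genes of each list in brackets. The 10 genes, the other effectors and the sensors have their highest point in AZD+MK+anti-PD-1 (red), while T cell and NK markers have theirs in KS100+anti-PD-1 (purple) on 5 and 3 counts.

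Markers of immune and stromal cells moved with the 10 genes in part, and their part in the result was not tested. T cell markers, 10 of 12 with counts in AZD+MK+anti-PD-1, summed to 6.91 CPM in control, 6.99 in anti-PD-1, 37.5 in AZD+MK, 97.5 in AZD+MK+anti-PD-1, 44.7 in KS100 and 195.9 in KS100+anti-PD-1, with Cd4 and Trac at 0 in AZD+MK+anti-PD-1. NK and cytotoxic markers, 5 of 9 with counts in that pool, summed to 50.2 CPM there, on 17 counts, and to 3.14 and 0.998 CPM in control and anti-PD-1, with Ncr1 at 0 in every pool. They were at 0 in AZD+MK, 22.3 CPM in KS100 and 117.6 CPM in KS100+anti-PD-1. Both lists were thus highest in KS100+anti-PD-1, but on 5 and 3 counts. The ratio of AZD+MK+anti-PD-1 to that pool was 0.566 (0.22 to 1.86) for T cell markers. For NK and cytotoxic markers it was 0.486 (0.141 to 2.59), so the order of these pools is not resolved. Macrophage markers, 12 of 13 with counts, summed to 517 CPM in AZD+MK+anti-PD-1, 339.3 in anti-PD-1 and 130.1 in control, and to 37.5, 312.9 and 313.5 CPM in AZD+MK, KS100 and KS100+anti-PD-1. The anti-PD-1 pool, with macrophage markers 2.54-fold (2.13 to 3.03) above control, had the 10 genes at 0.811 of control. Ptprc, the pan-leukocyte gene CD45 on that list, had 40 counts in AZD+MK+anti-PD-1 against 1 in control and 3 in anti-PD-1. It was 1 of 3 higher than control among 5 macrophage genes tested, where 14.9% of all genes tested were. C1qa, with 82 counts, was at 11.5 and C1qc at 3.94. Mertk, at 1.69 (0.57 to 4.17), and Lyz2, at 0.707 (0.184 to 1.94), were not past the rule. Cd68, below the minimum, was at 1.01 (0.112 to 4.36). Of plasmacytoid dendritic cells, known as strong producers of type I interferon, 5 of 9 listed markers had counts in AZD+MK+anti-PD-1, and the list was at 3.48 (2.94 to 4.10) of control with 2 of 2 genes tested higher. These were Bst2, itself a marker of these cells in mice, and Tcf4, at 4.0 (2.95 to 5.36). Bst2 gave 131 of the list's 211 counts in AZD+MK+anti-PD-1 and 322 of 461 in control, and Tcf4 gave 71 and 135. The ratio of this list is therefore not separate from that of the 10 genes. Cox6a2 had 6 counts against 2, Pacsin1 2 against 2 and Siglech 1 against 0, while Ccr9, Ly6d, Klk1 and Spib were at 0 in AZD+MK+anti-PD-1. Fibroblast markers, 7 of 8 with counts, were at 5.77 (4.66 to 7.13) of control in AZD+MK+anti-PD-1. Of 3 tested, 2 were higher, Col1a2 at 15 and Col3a1 at 8.12, where 14.9% of all genes tested were. Col1a1, at 2.01 (1.27 to 3.07), was not past the rule, and Lum had 0 counts against 1. The fibroblast list summed to 130.7 CPM in control, 1680 in anti-PD-1, 112.6 in AZD+MK, 466.8 in AZD+MK+anti-PD-1, 402.3 in KS100 and 470.2 in KS100+anti-PD-1. Its highest level was thus in the anti-PD-1 pool. Endothelial markers were at 1.27 (0.912 to 1.74) of control in AZD+MK+anti-PD-1, with 0 of 5 tested past the rule. Melanocyte markers were at 0.782 (0.755 to 0.81) of control in that pool, but did not move together. Of 8 tested, 1 was higher, Tyr at 4.01, and 2 were lower, Mlana at 0.288 and Slc45a2 at 0.357. Of all genes tested, 14.9% were higher and 8.02% lower. Dct, at 0.889, gave 20773 of the list's 34130 counts in control.

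The genes whose pattern over the 6 pools was most like the mean of the 10 were ranked among 8226 genes with at least 20 counts in 1 pool. Likeness was the root mean square difference of log2(CPM + 20), with TMM scaling, after centring each gene on its own mean over the pools. The nearest were Nceh1 at 0.19, Rabep1 at 0.21, Mindy2, Gm12185 and Cdc40 at 0.23 and Gbp2b at 0.25, beside a median of 1.12 over all genes compared. The 10 genes themselves lay between 0.35 for Oasl2 and 0.87 for Ifi44. Gbp2b, an interferon-inducible GTPase, had 22 counts in AZD+MK+anti-PD-1 and 0 in the other 5 pools. Gm12185 had 20 counts there and 1 count elsewhere. Nceh1, in contrast, had 73, 42, 1, 80, 3 and 1 counts, so the ranking mixes genes with and without expression in control.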

How the data were processed

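RNA was measured in 6 pooled B16F10 tumour libraries, 1 per treatment, grouped by GEO's treatment labels. The authors deposited whole-number counts per Ensembl mouse gene, with no normalisation. Per the submitters' processing notes, reads went through bcl2fastq, HTSeq and HISAT2 2.1.0 on build GRCm38. Per the labels' protocols, sequencing was by MiSeq, with 151 cycles. Annotation release and strand setting: not given in the sources used here, so reads of overlapping and antisense genes cannot be told apart. Of its 43721 lines, 92 spike-ins, all at 0, were left out. The number of tumours per pool was not used here.

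Symbols and GRCm38 coordinates came from GENCODE M21, which gave a symbol to 42462 of the 43629 genes in the table. TMM factors, from 0.675 to 1.16, and the additive quasi-likelihood fit used edgeR 4.0.16 in R 4.3.3 with filterByExpr at its defaults, with calls at an adjusted p (Benjamini-Hochberg) under 0.05. The common dispersion was 0.215, and the SE is the log2 change divided by the square root of F. Pools of other treatments stand in for replicates in that fit, and p-values measure only the spread between these libraries. Ratios and their exact conditional (Clopper-Pearson) intervals were computed in Python 3.11.15 with SciPy 1.17.1. Where a pool had 0 counts, 3 counts were put in their place and the ratio given as a lower bound. Reads carry no molecular identifiers, so intervals and limits cover counting error only. Depth ran from 25521 to 1591673 counts. The size rule and the edgeR fit were tested on simulated data.

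The members and the gene lists were chosen with earlier results of these data known. The text names all 10 members, the listed ligands, receptors and signalling genes by counts (of the last, an item is not reported here, so that list has no total), the 6 sensors or other effectors past the size rule with the highest counts in AZD+MK+anti-PD-1, and the 6 genes most like the members. Alternatives were other scalings (DESeq2 1.42.0 size factors, library totals, nuclear protein-coding totals), other minimums of counts and ratio, thinning to 25521 counts, leaving out members or pools, no filter in edgeR, and DESeq2's Wald test. Neutrophil and B cell markers, with 1 and 4 counts in AZD+MK+anti-PD-1, were also summed. Promoter windows are RefSeq's.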

Additional observations from a re-analysis of the deposited data

Results flagged for a closer look

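The antibody's ratio went in opposite directions in the arm without inhibitor and in the AZD+MK arm for Bst2 and for the sum of the 10 genes. For Bst2 the log2 ratio of the pool with anti-PD-1 to the pool without it was -0.30 with no inhibitor (169 against 322 counts) and 1.84 with AZD+MK (131 against 5 counts). Neither Bst2 ratio was past the rule. Library totals in place of TMM shift all log2 ratios of AZD+MK+anti-PD-1 to AZD+MK by -0.80. For the summed counts the log2 ratio was -0.30 with no inhibitor (271 against 516 counts) and 3.24 with AZD+MK (622 against 9 counts). With library totals the summed ratio with AZD+MK was 5.44 (2.85 to 12.0). Bst2 held 62.4% of the summed counts in control, so the sum is not separate from Bst2. In the KS100 arm the sum's log2 ratio was -0.25 (7 against 16 counts). With 1 library on each side the difference between arms was not tested.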

How the results depend on the processing

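No paired analysis was possible because each treatment had 1 pooled library. The 9 genes with counts in control kept a ratio of AZD+MK+anti-PD-1 to control above 1 under the 3 other scalings. With other scalings, minimums or ratios 6 to 10 genes passed, beside 7 as reported. The 6 were of 7 tested, with library totals and with a ratio of at least 4. Of all 8059 genes tested, 605 and 574 were higher there. The 10 were of 10 tested, with no minimum of counts, where 2183 of 15157 genes were higher. Thinned to 25521 counts, the genes with enough counts to test fell to 1 in each comparison with AZD+MK+anti-PD-1. In these, 1 of 1 passed against control, anti-PD-1, AZD+MK and KS100+anti-PD-1. Of all genes tested, 37 of 211, 42 of 195, 42 of 190 and 63 of 96 were higher in the same order. The pass against KS100+anti-PD-1 therefore does not stand out. Against AZD+MK, 1 passed in place of 2 with library totals, with nuclear protein-coding totals and with the stricter rule, which also left 1 against KS100+anti-PD-1. All genes higher against AZD+MK were then 76, 145 and 156 of 2793, and 107 of 2789 against KS100+anti-PD-1. With no minimum of counts, 1 of 9 genes passed in KS100 and 1 of 9 in KS100+anti-PD-1 against control. Of all genes tested, 1986 of 16078 and 4678 of 17056 were higher there, so these calls do not stand out.

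Library totals moved all log2 ratios of AZD+MK+anti-PD-1 to control by -0.69 and turned the split over all genes from 1202 higher and 646 lower to 605 and 1720. With totals the summed ratio was 5.67 to control and 6.80 to anti-PD-1. Against anti-PD-1 the split went from 1000 higher and 579 lower to 513 and 1760, and against AZD+MK from 309 and 104 to 76 and 232. Nuclear protein-coding totals gave 145 and 161 against AZD+MK, and 129 and 41 in place of 209 and 28 against KS100+anti-PD-1. Without Rsad2 the summed ratio of AZD+MK+anti-PD-1 was 6.53 to control and 7.98 to anti-PD-1. Leaving out Bst2, chosen after seeing the data, gave 19.2 and 23.7, and leaving out both gave 20.7 and 24.4, and 3.66 to KS100+anti-PD-1. Against control, KS100 was then at 3.33 without Bst2 and 3.55 without both, and KS100+anti-PD-1 at 2.74 and 5.67.

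In the additive edgeR fit, leaving out each pool gave 0 to 5 genes for the AZD+MK effect, beside 2, and 0 for the KS100 effect, beside 1. DESeq2's Wald test called 0 of the 2 genes with an adjusted p for AZD+MK. Without the AZD+MK+anti-PD-1 pool no gene of the 10 was kept, so that setting gave no value. Depth limits every statement on the 3 shallow pools.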
